A study of Mus musculus with 6 samples.

Results

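Serine synthesis and the stress response driven by the transcription factor ATF4 were followed through 10 named genes in sorted mouse retinal cells. The genes were chosen by name alone: Phgdh, Psat1, Psph and Shmt2 of serine and glycine synthesis, Atf4, Atf5 and Ddit3 among the transcription factors of the response, and Asns, Trib3 and Chac1 among the targets of ATF4. Of the 10, 9 were found among the 15450 named genes tested, on 15 of the 26691 transcript rows. Atf5 was not analysed here.

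The cells came from 2 groups of 3 libraries, each library a pool of 3 retinas from 3 animals. AAV-Sox11 eyes received an adeno-associated virus carrying Sox11, a transcription factor of developing neurons. AAV-Control eyes received the same kind of virus with PLAP as the control cargo; the genotype labels read AAV-So11, so spelled, and AAV-PLAP. All other steps were shared: mice were about 3 to 4 weeks old when they entered the experiment, the virus was left for 2 weeks, the optic nerve crush came 3 days before the retinas were collected, and live Thy1-positive cells were sorted from papain-dissociated retinas. The labels do not name the strain, the viral promoter or the serotype. No uncrushed retina entered the comparison, so the values compare the 2 viruses after injury and do not measure the response to injury itself. The letters A, B and C name the replicates; control and Sox11 preparations of 1 letter were made on 1 day.

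Serine is made from a glycolytic intermediate in 3 steps, catalysed in order by the proteins of Phgdh, Psat1 and Psph, and the mitochondrial enzyme SHMT2 then splits serine into glycine and a carbon unit for the folate cycle. ATF4 is a transcription factor whose translation increases when the initiation factor eIF2 is phosphorylated, as happens under amino acid shortage or endoplasmic reticulum stress, so its activity can change with no change in its mRNA. It then raises genes of amino acid synthesis, transport and tRNA charging, serine synthesis included. In retinal ganglion cells, which send the optic nerve's axons to the brain, axon injury is known to activate kinases that lead to the eIF2 pathway and to ATF4 and CHOP, the product of Ddit3. In the retina, serine synthesis is best known from Müller glia.

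ATF4 binds DNA as a dimer with C/EBP family proteins at a composite element whose core can be written TGATGNAA. That core was sought on both strands in RefSeq promoters of build GRCm38.p6, each holding the 250 bases before and the 50 after a gene's start. It was present in 1304 of 32851 promoters, 3.97%, and among the 10 genes it was present once each in Asns, Trib3 and Chac1, the 3 listed as targets. No match stood in the windows of Phgdh, Psat1, Psph, Shmt2, Atf4, Atf5 or Ddit3, which says only that these letters were not in those windows. The 3 matches are shown because they are what the named targets share in sequence; each is written 5′ to 3′ on the strand of the gene, with the 8 bases of the match in capitals.
Asns, chr6:7693210-7693269, minus strand, match beginning 23 bases before the start: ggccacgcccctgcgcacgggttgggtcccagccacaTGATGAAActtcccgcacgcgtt
Trib3, chr2:152344028-152344057, minus strand, match on the opposite strand 14 bases after the start: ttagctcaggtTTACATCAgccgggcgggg
Chac1, chr2:119351023-119351082, plus strand, match on the opposite strand 193 bases before the start: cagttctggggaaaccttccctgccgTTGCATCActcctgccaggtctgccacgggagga

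Values are the authors' normalized values, called scaled values here, summed over the transcript rows of a gene; they are relative abundances scaled per library, not read counts. Libraries held 10747985 to 11546892 units in the deposited whole-number columns, and no row held a 0, so the table had been filtered. Sox11 itself had scaled values of 179, 234 and 284 in AAV-Sox11 libraries A, B and C, against 131, 111 and 100.3 in AAV-Control libraries (log2 fold change 1.003 ± 0.20 (SE), limma adjusted p = 0.0504). Of the markers of retinal ganglion cells, 11 of 12 were measured and none passed; 8 had positive log2 fold changes, with a median of 0.59 and a summed value of 8468 to 10981 in AAV-Sox11 libraries and 6960 to 10436 in AAV-Control libraries. Bipolar cell, cone, microglia and rod markers leaned the other way, with none past the threshold. Positive were 0 of 8 bipolar cell markers (median -0.83), 0 of 6 cone markers (-0.86), 0 of 6 microglia markers (-0.55) and 1 of 8 rod markers (-0.53). Amacrine cell markers were mixed: of 7 measured, 4 were positive, the median was 0.09, and 2 were lower at a limma adjusted p under 0.05. Bipolar cell markers summed to 6400 to 7439 in AAV-Sox11 libraries and 7805 to 12111 in AAV-Control libraries. Rod markers summed to 23600 to 43214 in AAV-Sox11 libraries and 37813 to 59859 in AAV-Control libraries, and Müller glia markers to 56002 to 65858 in AAV-Sox11 libraries and 42994 to 80159 in AAV-Control libraries, so RNA of other retinal cells was present in every library. In such mixed samples, fewer cells of a type and less RNA per cell cannot be told apart, and the part of this shift in the members' values was not tested.

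No member passed limma's test at an adjusted p under 0.05, the threshold that 358 of 15450 genes, 2.32%, passed. At an unadjusted p under 0.05 there were 2 members, Phgdh and Shmt2, beside 24.3% of all genes. The same 2 members were the only ones of the 9 whose 3 values in each group did not overlap, which was so for 30.7% of all genes in either direction and for 16.2% with AAV-Sox11 higher. The log2 fold change, AAV-Sox11 over AAV-Control, was positive for 6 members and negative for 3, with a median of 0.07 over the 9 members and 0.03 over all genes; without the authors' scaling factors the signs of Atf4 and Psph turned, at -0.044 and -0.0091, and the median of all genes was -0.05. Both counts of 2 are near the share of all genes and are not read as a result about these genes.

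**Figure D1:**
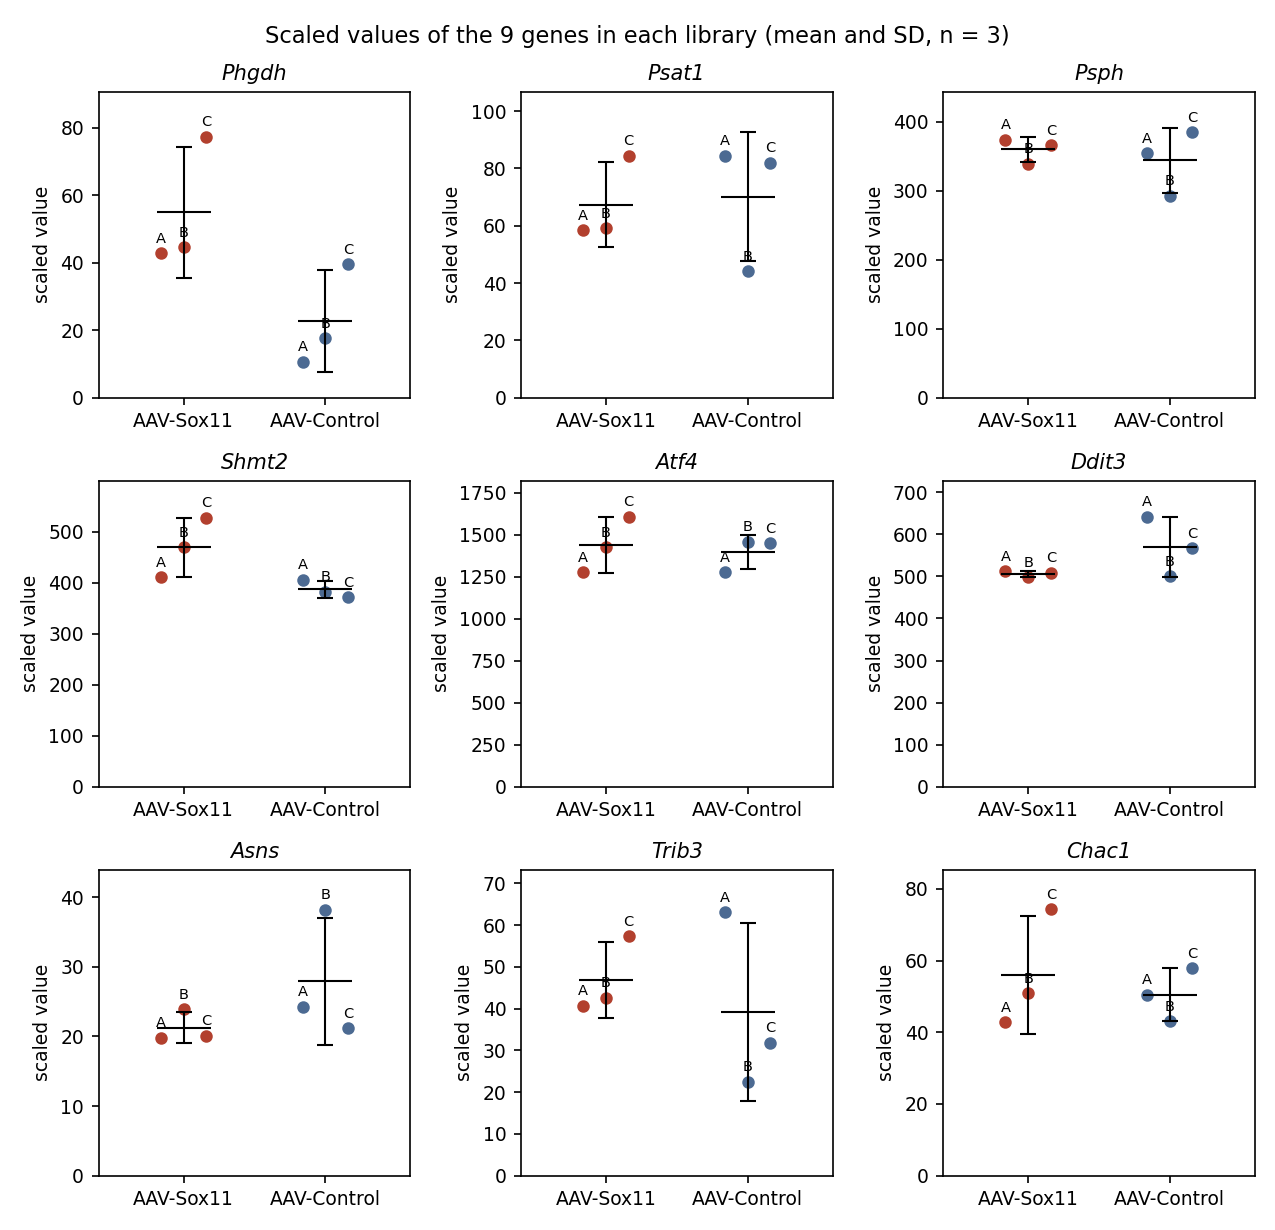
Scaled values (y axis, from 0) of the 9 genes in each AAV-Sox11 library (left, red) and AAV-Control library (right, blue), lettered by replicate, with the mean and SD of the 3. Phgdh and Shmt2 are the 2 genes whose groups do not overlap; the Phgdh values of AAV-Sox11 libraries lie between 42.8 and 77.4 and those of AAV-Control libraries between 10.7 and 39.6.

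Phgdh, the first and rate-setting enzyme of serine synthesis, had the largest difference among the members. Its scaled values were 42.8, 44.7 and 77.4 in AAV-Sox11 libraries A, B and C, and 10.7, 17.6 and 39.6 in AAV-Control libraries A, B and C. All 3 AAV-Sox11 libraries were above all 3 AAV-Control libraries, though AAV-Sox11 A and AAV-Control C were only a few units apart. The mean was 54.9 ± 19.5 in AAV-Sox11 libraries and 22.6 ± 15.1 in AAV-Control libraries (SD, n = 3 each), 2.61-fold on the fitted scale, with a log2 fold change of 1.38 ± 0.47 (SE) and a 95% confidence interval of 0.29 to 2.48. The limma adjusted p was 0.134, so the difference did not pass.

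Within each day of preparation the log2 difference of Phgdh had the same sign, at 1.91 in pair A, 1.29 in pair B and 0.95 in pair C. In both groups library C was the highest. With the replicate letter as a block the standard error shrank and the limma adjusted p was 0.0449, which passed. In that blocked fit 2.09% of all genes were called higher. The deposited values lack spread along 1 direction that lies partly in the spread left within letters, so p-values of this fit may be too small. In the authors' deposited table, Phgdh had a log2 fold change of 1.28 and a false discovery rate of 0.0353, and that table called 1.93% of transcript rows higher at a rate under 0.05. Without AAV-Control C the log2 fold change was 1.87 with an adjusted p of 0.0484, and without AAV-Control A it was 0.97 with an adjusted p of 0.242. The call on Phgdh therefore differed with the fit and with the libraries kept. The authors' comparison was made per transcript row, and why the calls differed was not tested.

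Phgdh is read on a single protein-coding transcript, Phgdh-201, with 12 exons on the minus strand of chromosome 3 (98313170 to 98339990, GRCm38). At a mean abundance percentile of 19.3 it is among the less abundant genes of the table. Per kilobase of transcript its level was 29.0 in AAV-Sox11 libraries and 11.96 in AAV-Control libraries. On their protein-coding rows, Psat1 stood at 15.6 per kilobase in AAV-Sox11 libraries and 12.6 in AAV-Control libraries, and Psph, the most abundant of the 3, at 166 in AAV-Sox11 libraries and 159.6 in AAV-Control libraries. In AAV-Control libraries the Phgdh and Psat1 levels lay within 1 SD of each other.

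Because serine synthesis in the retina is known from glia, the Phgdh values are set beside the Müller glia markers, of which 11 of 13 were measured and none passed the test. Centred on each gene, their mean log2 value was 0.17, -0.02 and -0.29 in AAV-Sox11 libraries A, B and C and 0.98, -0.43 and -0.41 in AAV-Control libraries A, B and C. Of the 11, 4 had positive and 7 negative log2 fold changes, from -0.61 to 0.60 with a median of -0.06. The most abundant, Dkk3, which gives most of their sum, had 0.10. With the Müller glia index as a covariate the Phgdh log2 fold change was 1.30 (limma adjusted p = 0.0870). The astrocyte markers, of which 4 of 7 were measured, summed to 4028 to 5128 in AAV-Sox11 libraries and 4472 to 12047 in AAV-Control libraries, again with AAV-Control A highest. The part of glia, or of the shift in other cell markers, in the Phgdh difference was not tested beyond these values.

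Psat1 encodes the transaminase of the second step. Its scaled values were 58.4, 59.2 and 84.5 in AAV-Sox11 libraries and 84.5, 44.1 and 82.0 in AAV-Control libraries. The groups overlapped throughout, with a log2 fold change of -0.02 ± 0.29 (SE), a 95% interval of -0.71 to 0.67 and a limma adjusted p of 0.972. The interval spans fold changes of 0.611 to 1.59, so a moderate difference in either direction was not detectable with 3 libraries a group.

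Psph encodes the phosphatase of the last step. Its scaled values were 374, 340 and 366 in AAV-Sox11 libraries and 354, 293 and 385 in AAV-Control libraries. These also overlapped, with a log2 fold change of 0.07 ± 0.13 (SE), an interval of -0.22 to 0.37 and a limma adjusted p of 0.754. Of the 3 steps of serine synthesis, then, a separation of the groups was seen in the first alone. The difference between the enzymes' fold changes was not tested.

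Shmt2, the mitochondrial enzyme that uses serine, had scaled values of 411, 469 and 527 in AAV-Sox11 libraries and 406, 382 and 371 in AAV-Control libraries. The groups did not overlap, but AAV-Sox11 A lay within a few units of AAV-Control A. The mean was 469 ± 58.1 in AAV-Sox11 libraries and 387 ± 17.5 in AAV-Control libraries (SD, n = 3 each), a log2 fold change of 0.27 ± 0.12 (SE) with a limma adjusted p of 0.205; it was 0.08 with the sex index as a covariate and 0.16 without both C libraries. The log2 difference was 0.02 in pair A, 0.29 in pair B and 0.50 in pair C. Phgdh and Shmt2 were the only 2 members higher in all 3 pairs, and Ddit3 and Asns were lower in all 3. The share of all genes with 1 sign in all 3 pairs was not counted, so this is not read as a result.

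**Figure D2:**
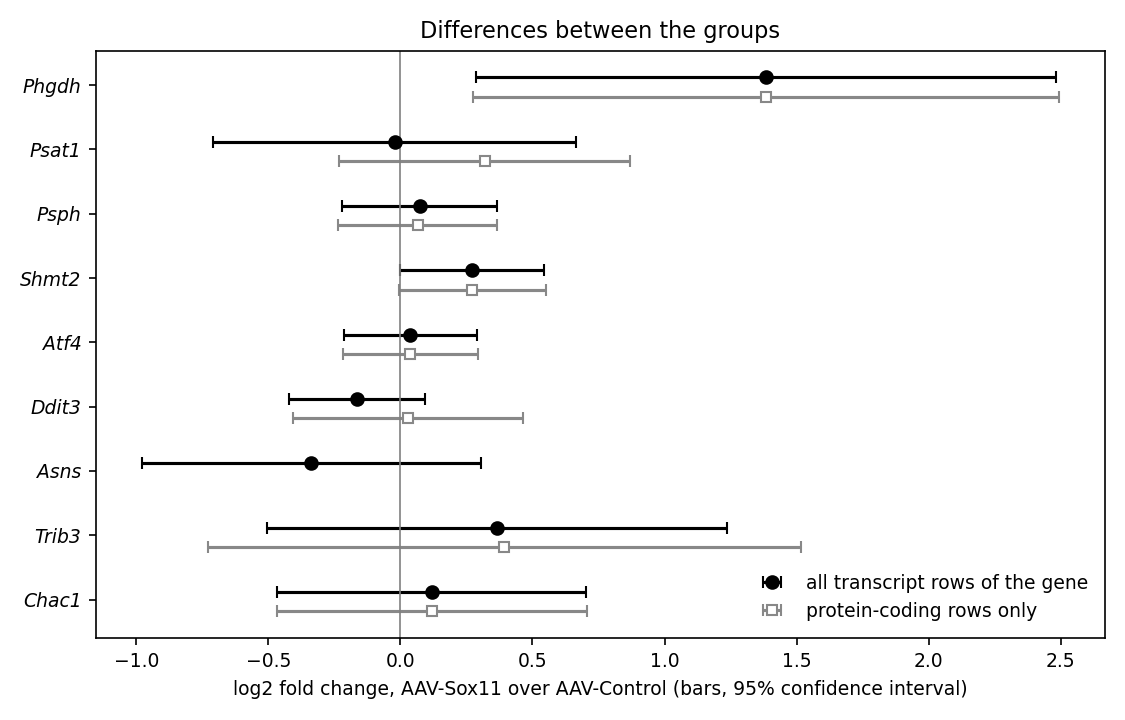
Log2 fold change, AAV-Sox11 over AAV-Control (x axis), of each of the 9 genes with its 95% confidence interval from limma, for all transcript rows of the gene (black) and for its protein-coding rows alone (grey, open squares). Phgdh lies at 1.38, the other 8 genes lie between -0.34 and 0.37 over all rows, and the Psat1 and Ddit3 points lie higher, at 0.32 and 0.03, in the protein-coding rows, that of Ddit3 being negative without the scaling factors; Asns has no protein-coding row.

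Atf4 mRNA was abundant and its level was close in the 2 groups. Its scaled values were 1276, 1426 and 1609 in AAV-Sox11 libraries and 1279, 1460 and 1449 in AAV-Control libraries, at the 88.0 percentile of mean abundance. The groups overlapped, with means of 1437 ± 167 in AAV-Sox11 libraries and 1396 ± 102 in AAV-Control libraries (SD, n = 3 each). The log2 fold change was 0.04 ± 0.11 (SE), and its 95% interval of -0.21 to 0.29 spans fold changes of 0.862 to 1.22 (limma adjusted p = 0.856). With upper-quartile scaling the log2 fold change was -0.010. Because ATF4 is set mainly at translation, this interval bounds the mRNA and not the protein.

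Ddit3, which encodes the pro-death factor CHOP, had scaled values of 512, 497 and 509 in AAV-Sox11 libraries and 642, 500 and 566 in AAV-Control libraries. It was lower with AAV-Sox11 in all 3 pairs, by little in pair B, and the groups overlapped. The mean was 506 ± 7.62 in AAV-Sox11 libraries and 569 ± 70.9 in AAV-Control libraries (SD, n = 3 each). The log2 fold change was -0.16 ± 0.11 (SE), with an interval of -0.42 to 0.09 and a limma adjusted p of 0.396; it was -0.07 without AAV-Control A and -0.25 without AAV-Control B. Per kilobase of its protein-coding row Ddit3 reached 218 in AAV-Sox11 libraries and 216 in AAV-Control libraries, and Atf4, the highest of the members, 833 in AAV-Sox11 libraries and 809 in AAV-Control libraries.

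The 3 listed ATF4 targets were low in both groups and none passed. Trib3, a pseudokinase induced late in the response, had scaled values of 40.7, 42.6 and 57.3 in AAV-Sox11 libraries and 63.1, 22.5 and 31.8 in AAV-Control libraries. AAV-Control A was the highest of the 6 and AAV-Control B the lowest, so the groups overlapped fully. The log2 fold change was 0.37 ± 0.37 (SE; limma adjusted p = 0.578), 0.77 without AAV-Control A (adjusted p = 0.159) and 0.04 without AAV-Control B.

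Chac1, which degrades glutathione, had scaled values of 42.8, 50.9 and 74.4 in AAV-Sox11 libraries and 50.5, 43.1 and 57.9 in AAV-Control libraries. The highest value was in an AAV-Sox11 library, but so was the lowest, and the log2 fold change was 0.12 ± 0.25 (SE; limma adjusted p = 0.802). Asns, asparagine synthetase, had scaled values of 19.8, 23.9 and 20.1 in AAV-Sox11 libraries and 24.3, 38.2 and 21.2 in AAV-Control libraries, a log2 fold change of -0.34 ± 0.27 (SE; limma adjusted p = 0.479), which was -0.09 without AAV-Control B and -0.50 without AAV-Control C. It was read only on Asns-204, a retained-intron transcript of 2 exons and 526 bases on the minus strand of chromosome 6 (7681277 to 7682358, GRCm38), so the coding mRNA of Asns was not measured.

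Not all of the signal in these genes came from coding mRNA. Of the 15 transcript rows, 8 were annotated as protein-coding, 1 for each member but Asns, and the other 7 as retained-intron or processed transcripts of 5 genes. All 8 protein-coding rows had positive log2 fold changes, from 0.03 to 1.38 with a median of 0.20, though without the scaling factors 5 were positive and 3 negative, those of Atf4, Ddit3 and Psph. Of the 7 other rows, 2 were positive and 5 negative, from -0.79 to 0.35 with a median of -0.26. None of the 15 passed in a fit of single rows, in which 1.97% of all rows did. The same tilt, smaller, was present over the whole table: 58.1% of 13426 protein-coding rows were positive, with a median of 0.07, and 44.7% of 6008 retained-intron rows, with a median of -0.05.

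**Figure D3:**
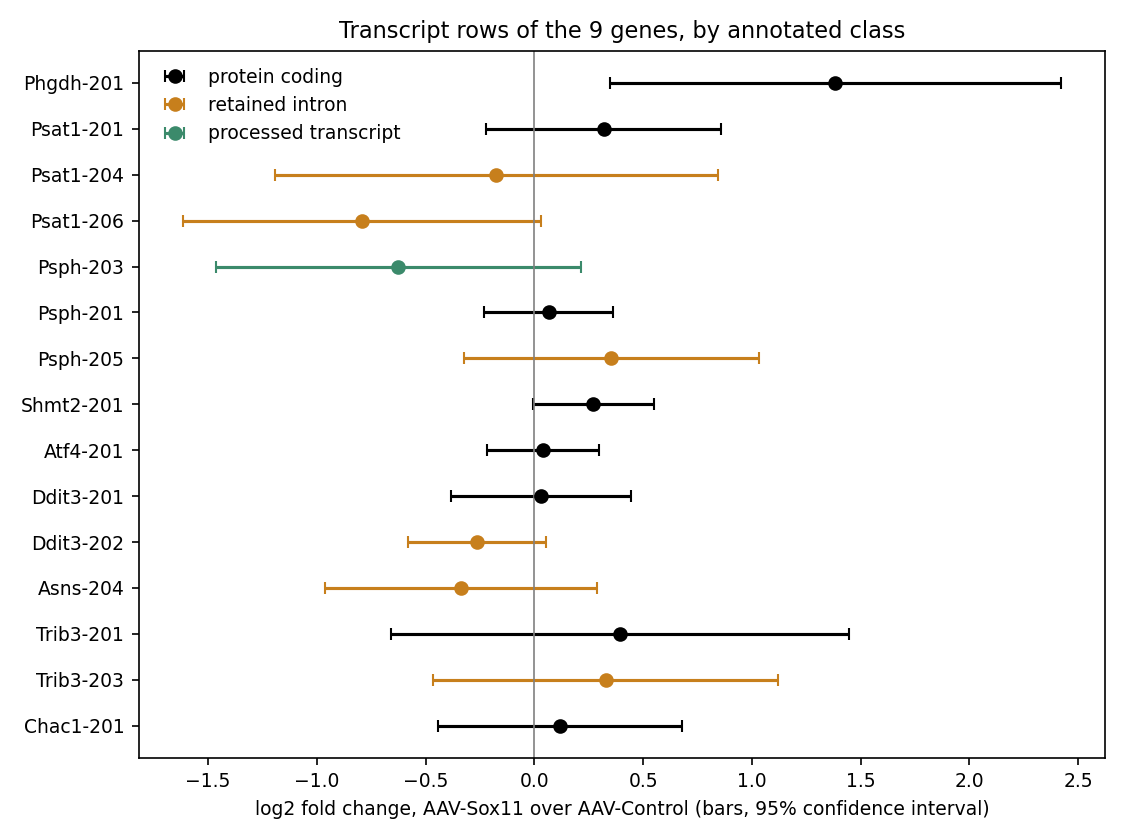
Log2 fold change, AAV-Sox11 over AAV-Control (x axis), of the 15 transcript rows of the 9 genes with 95% confidence intervals, coloured by annotated class. With the authors' scaling all 8 protein-coding rows (black) lie at or above 0.03, of which 3 (Atf4, Ddit3 and Psph) turn negative without it, while 5 of the 7 retained-intron and processed-transcript rows lie below 0, and most intervals include 0.

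The flat sum of Psat1 held rows of opposite sign. Its coding transcript Psat1-201 had scaled values of 38.6, 38.4 and 45.2 in AAV-Sox11 libraries and 39.8, 24.5 and 34.7 in AAV-Control libraries, a log2 fold change of 0.32 ± 0.24 (SE; limma adjusted p = 0.460). The retained-intron transcript Psat1-206 had 7.31, 7.28 and 12.1 in AAV-Sox11 libraries and 18.4, 9.80 and 21.2 in AAV-Control libraries, a log2 fold change of -0.79 ± 0.36 (SE; limma adjusted p = 0.242). As a share of all Psat1 signal, Psat1-206 took 12.5%, 12.3% and 14.3% in AAV-Sox11 libraries, against 21.8%, 22.2% and 25.9% in AAV-Control libraries, and the groups did not overlap. It was the only 1 of 10 member rows whose share within its gene was so separated, beside 22.4% of the 15873 rows of genes with several rows, and it was singled out after its values were seen.

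Ddit3 divided in the same way. Its protein-coding row Ddit3-201 averaged 194 ± 18.3 in AAV-Sox11 libraries and 193 ± 43.2 in AAV-Control libraries (SD, n = 3 each), a log2 fold change of 0.03 ± 0.18 (SE), or -0.05 without the scaling factors. Its retained-intron row held most of the gene's signal, averaging 312 ± 23.3 in AAV-Sox11 libraries and 377 ± 54.0 in AAV-Control libraries, a log2 fold change of -0.26 ± 0.14 (SE; limma adjusted p = 0.310). Most of the negative difference of the summed gene lay in the retained-intron row. Whether the counting used strand is not given, and 3 members overlap a gene on the opposite strand in the annotation: Psph overlaps Cct6a by 452 bases, Ddit3 overlaps Mars by 68 and Gm4189 by 15, and Shmt2 overlaps Ndufa4l2 by 16.

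The wider pathway was described through 6 lists of 106 different genes, 7 of which stood on more than 1 list. Of the 106, 0 rose and 1 fell, 73 had positive log2 fold changes and the median was 0.17, beside 123 genes higher, 235 lower, 53.8% positive and a median of 0.03 over all genes. A share of 1 in 106 called is below the 2.32% of all genes called. The medians of the lists lay slightly above that of all genes, also without the scaling factors, but not in every alternative. At a gene mean of at least 50 the injury kinase median was 0.02, beside 0.06 over all genes. Over protein-coding rows the folate median was 0.07, beside 0.09 over all genes.

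**Figure D4:**
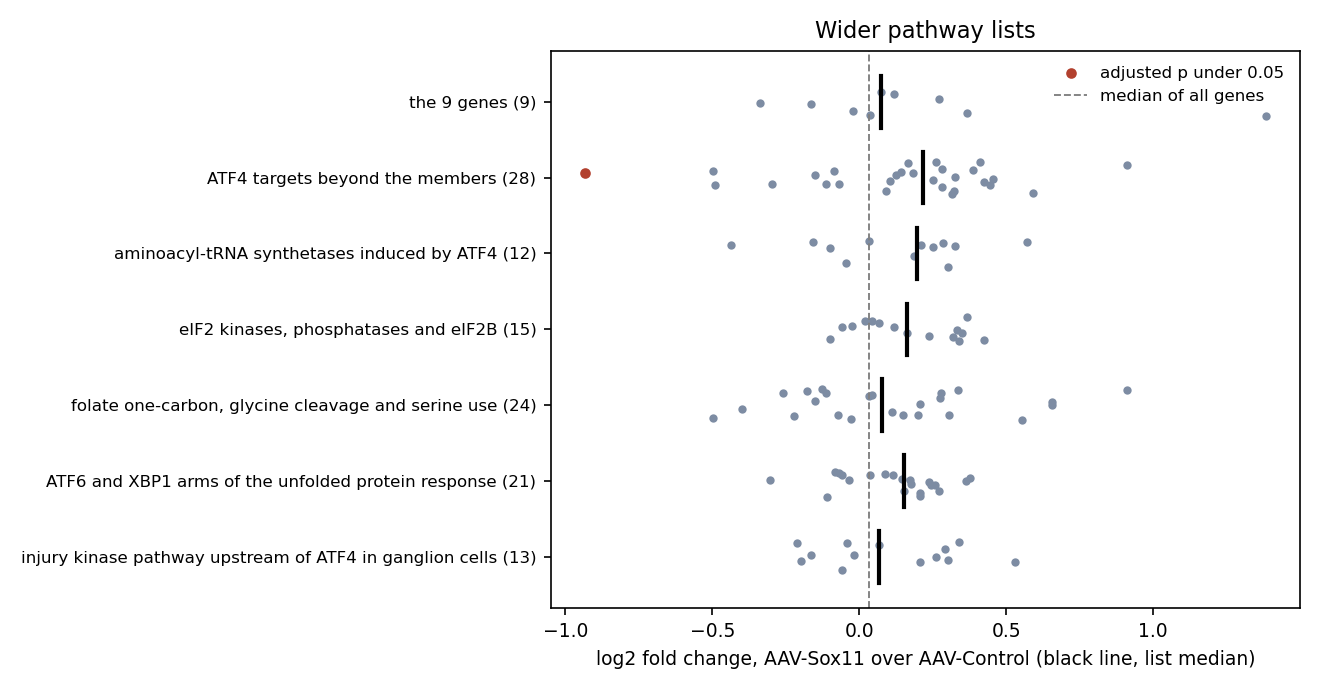
Log2 fold change, AAV-Sox11 over AAV-Control (x axis), of each measured gene (points) of the 9 members and of the 6 wider lists, with the number measured in brackets, the list median (black line) and the median of all genes (dashed). Slc6a9, at -0.93, is the only point past an adjusted p of 0.05 (red), and every list median lies right of the dashed line.

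Among further ATF4 targets, 28 of 35 were measured, 0 rose and 1 fell, with 20 positive and a median log2 fold change of 0.22; this median was 0.10 to 0.28 over the alternatives. Their summed scaled value was 19836 to 22543 in AAV-Sox11 libraries and 17034 to 18101 in AAV-Control libraries. The groups did not overlap, but neither did the sums of the eIF2, folate and ATF6 lists or the scaled total of all rows, all higher in AAV-Sox11 libraries. Slc6a9, a glycine transporter, had scaled values of 209, 186 and 190 in AAV-Sox11 libraries and 462, 285 and 392 in AAV-Control libraries. The groups lay well apart, with a log2 fold change of -0.93 ± 0.18 (SE; limma adjusted p = 0.0481); the call was lost under 11 of 22 alternatives, over which the adjusted p was 0.0219 to 0.241. Slc6a9 also marks glycinergic amacrine cells, retinal interneurons; of 7 measured amacrine markers 2 fell, Slc6a9 itself and Pax6, 4 were positive, and the 7 summed to 13022 to 15271 in AAV-Sox11 libraries and 13094 to 16375 in AAV-Control libraries. The part of these cells in the Slc6a9 difference was not tested.

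Slc38a2, the amino acid transporter SNAT2 and a classic target of ATF4, had scaled values of 4459, 4992 and 4978 in AAV-Sox11 libraries and 3310, 3941 and 3357 in AAV-Control libraries. Every AAV-Sox11 library was above every AAV-Control library, with a log2 fold change of 0.45 ± 0.10 (SE); the limma adjusted p was 0.0562, and 0.0399 with the replicate block. Without AAV-Control B the adjusted p was 0.0325. Mthfd1l, a mitochondrial enzyme that makes formate from the carbon unit released from serine, had scaled values of 65.7, 76.8 and 72.4 in AAV-Sox11 libraries and 41.7, 41.2 and 30.9 in AAV-Control libraries. These too were clear of each other, at a log2 fold change of 0.91 ± 0.20 (SE; limma adjusted p = 0.0569), and the adjusted p was 0.0546 to 0.328 over its 22 alternatives.

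In the folate, glycine cleavage and serine-use list, 24 of 30 genes were measured, 0 passed, 14 were positive and the median log2 fold change was 0.08, or -0.0030 without the scaling factors. In 10 of the 24 all AAV-Sox11 libraries were above all AAV-Control libraries, which was so for 16.2% of all genes. Of the other lists it was so for 8 of the 28 further ATF4 targets and 7 of the 21 genes of the ATF6 and XBP1 arms. It was so for 4 of the 15 eIF2 genes, 2 of the 12 tRNA synthetase genes and 1 of the 13 injury kinase genes. All AAV-Sox11 libraries were below all AAV-Control libraries in 2 injury kinase genes and in 0 eIF2 genes. The same was so for 1 gene each of the folate, further ATF4 target, ATF6 and XBP1, and tRNA synthetase lists. Over all 15450 genes it was so for 2232. Sptlc1, a subunit of the palmitoyltransferase that uses serine for sphingolipids, was the second gene of smallest p, at a log2 fold change of 0.34 ± 0.09 (SE; limma adjusted p = 0.0777). Mthfd2, another mitochondrial folate enzyme induced by ATF4, had a log2 fold change of -0.11 (limma adjusted p = 0.703). The cytosolic Shmt1 had one of -0.18 (limma adjusted p = 0.396). These 2 were picked out with their values in view.

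The 12 tRNA synthetase genes were all measured and none passed, with 8 positive and a median of 0.20. Lars and Gars, which charge leucine and glycine tRNAs, had the smallest p, with log2 fold changes of 0.30 ± 0.12 and 0.33 ± 0.14 (SE; limma adjusted p = 0.168 and 0.196). Of the eIF2 kinases, phosphatases and eIF2B subunits, 15 of 17 were measured and none passed, with 12 positive and a median of 0.16. Eif2s3x, a subunit of eIF2, had a log2 fold change of 0.32 ± 0.11 and Eif2ak1, the heme-regulated eIF2 kinase, one of 0.35 ± 0.12 (SE; limma adjusted p = 0.140 and 0.141).

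In the other arms of the unfolded protein response, those of ATF6 and XBP1, 21 of 22 genes were measured and none passed, with 15 positive and a median of 0.15. The 2 genes of smallest p were Dnajb9, a chaperone of the endoplasmic reticulum, at 0.36 ± 0.09 (SE; limma adjusted p = 0.0767), and Atf6, its stress-sensing transcription factor, at 0.27 ± 0.08 (SE; limma adjusted p = 0.0978), both log2 fold changes. All 13 genes of the injury kinase pathway were measured and none passed, with 7 positive and a median of 0.07. That median was -0.015 without the scaling factors and 0.29 over protein-coding rows, where the median of all genes was 0.09. Eif2ak3, the kinase PERK, had a log2 fold change of 0.34 ± 0.13 and Map2k4, a kinase upstream of JNK, one of 0.26 ± 0.11 (SE; limma adjusted p = 0.156 and 0.185).

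Genes whose level most resembled that of Phgdh were sought among genes of mean scaled value of at least 50, by Pearson correlation of log2 values over the 6 libraries, which share preparation days and the group difference. Among the 5 highest were H2-DMa, Pcdh11x and Abracl at 0.997 each, and Dock11 at 0.995. With 6 points such values are common: 454 genes exceeded 0.9. H2-DMa, a subunit of the machinery that loads peptides on MHC class II, had scaled values of 222, 216.0 and 309.7 in AAV-Sox11 libraries and 78.6, 112 and 208 in AAV-Control libraries, with library C highest in each group, as for Phgdh. For Atf4 the 5 highest were Stub1 at 0.996, Mfap1b at 0.995, Syt9 at 0.990, Dhtkd1 at 0.986 and Abl1 at 0.985, and 150 genes exceeded 0.9.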

How the data were processed

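RNA of Thy1-positive sorted retinal cells was read in 6 libraries, amplified from very low input. Per the submitters' processing notes, CASAVA 1.8.2, edgeR and build mm10 were used; aligner, counter, strandedness and gene annotation were not given in the sources used here. A single table of 26691 transcript rows was deposited, with whole-number columns, normalized columns and the authors' own comparison. The whole numbers are treated as a score, that is, adjusted and rounded values the authors deposited, although no header or label records the step, since along 1 direction across the libraries their spread was 9.48e-05 natural log units against 0.017 from read counting. AAV-Sox11 B carried 57.7% of that direction's weight, and its cosine with the group contrast was -0.0185. Replicate spread is therefore partly missing, so standard errors and p-values of the main fit may be too small. That direction enters 1 alternative as a covariate, in which 0 genes passed, beside 358 in the main fit. What the removal did to the fold changes cannot be read from these files. In the signal columns of normalized values, which the authors deposited beside them, each value is the whole number times 1 factor per library (0.965 to 1.04). Depth in reads is unknown. A further 6 per-library comparison columns were not used. From the authors' deposited table, log2 fold changes, p-values and false discovery rates are named as theirs.

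Normalized values were summed per gene name; 357 rows with no name, 0.422% to 0.517% of a library, stayed out. The lowest gene mean was 7.20, so the minimum of 1 removed 0 genes. limma 3.58.1 in R 4.3.3 (trend, two-sided, Benjamini-Hochberg over all 15450 genes) was fitted to log2(value + 1), which understates changes of low genes. Count models were not used. The fit was run on simulated data. How it performs on values that lack spread along 1 direction, as the deposited values do, was not tested. Members, lists and the rule for named genes were chosen with earlier results of these data known. That rule took all members, each wider list's genes past the threshold or else its 2 of smallest p, and the 5 genes most like Phgdh and Atf4, of which 1 is not reported here. Transcript classes and coordinates come from GENCODE vM21 (GRCm38), which held 26103 of the rows; promoters come from RefSeq (GRCm38.p6). The series description ties a replicate letter to 1 day, so a fit with the letter as a block is an alternative. The direction without spread weighs AAV-Sox11 B at 0.760 and AAV-Control B at -0.224, so it lies partly in the spread left within letters. Standard errors of the blocked fit may therefore be too small. Other alternatives add as a covariate the removed direction, a Müller glia index (mean log2 value of its markers) or a sex index (from Xist and Y-linked genes). The sex index was -6.87, -8.11 and -8.45 in AAV-Sox11 libraries A, B and C. In AAV-Control libraries A, B and C it was -6.82, -6.79 and -5.26. The groups did not overlap, so this covariate runs partly along the group contrast. The part of sex make-up in the differences was not tested. Deviations from group means correlated at 0.0025 for letter A, 0.793 for B and 0.236 for C. Between different letters they correlated at -0.876 (AAV-Sox11 B with AAV-Control C) to 0.198 (AAV-Sox11 A with AAV-Control C). The removed direction weighs AAV-Sox11 B at 0.760, AAV-Control B at -0.224 and AAV-Control C at 0.252. These correlations therefore cannot show whether the libraries of a letter shared a day. The libraries were separate pools of animals, no 2 libraries had equal values in any gene, and Spearman correlations between libraries were 0.958 to 0.994.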

Additional observations from a re-analysis of the deposited data

How the results depend on the processing

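None of the 9 members passed in the limma fit, and 1, Phgdh, did with the replicate block (log2 fold change 1.38, adjusted p = 0.0449) and without AAV-Control C (1.87); leaving out 1 library or letter gave 0 to 1 members. The replicate block changed no other member's call, and its standard errors may be too small because part of the spread it uses had been removed. Genes called higher were 123, but 323 with the block, 249 with the Müller glia index, 0 with the removed direction (Phgdh 1.38, adjusted p = 0.234) and 0 with the sex index as a covariate, and 0 to 339 when a library or letter was left out. Genes called lower were 235, but 414 with the block, 371 with the Müller glia index, 0 with the removed direction, 0 with the sex index, 388 without the authors' factor (82 higher), 355 with upper-quartile scaling (100 higher), 117 over protein-coding rows, and 0 to 406 with a library or letter left out. At an unadjusted p under 0.05, limma gave 2582 genes with the removed direction and 2702 with the sex index as a covariate, where no gene passed adjustment, and 3120, 1942 and 2953 without AAV-Sox11 A, B and C and 3092 without letter C, beside 3762. The fold change of Phgdh stayed positive in all 22 alternatives that kept it, from 0.97 to 1.87, with adjusted p from 0.0449 to 0.413; a gene mean of at least 50 left out Phgdh, Asns and Trib3.

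Log2 fold changes that changed sign were all small and none passed. Psat1 gave 0.019 with the sex index, 0.32 on its row of highest mean and 0.32 on protein-coding rows, and -0.32 to 0.23 with a library or letter left out. Atf4 gave -0.050 with the sex index, -0.044 without the factor, -0.010 with upper-quartile scaling and -0.047 to 0.12 with a library or letter left out. Psph gave -0.0091 without the factor and -0.038 to 0.16 with a library or letter left out, Ddit3 gave 0.029 on protein-coding rows, and Chac1 gave -0.017 with the sex index and -0.10 to 0.29 with a library or letter left out. The cause of these shifts was not tested. Of the list medians, those of folate and serine use (lowest -0.0030) and the injury kinases (lowest -0.015) fell below 0 in some alternatives, and the other 4 stayed positive. That of the injury kinases was highest, at 0.29, over protein-coding rows. The restriction to protein-coding rows was chosen after seeing the data. With 3 libraries a group, differences such as that of Psat1 were bounded no more closely than their intervals.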
